A study of Mus musculus with 4 samples.

Results

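The genes described are 10 that encode small proteoglycans and matricellular proteins of the vessel wall: Dcn, Bgn, Lum, Ogn, Fmod, Prelp, Mgp, Sparc, Postn and Fn1. They were listed by name, and all 10 were found among the 27998 genes of the count tables. Single-cell RNA was counted in 4 droplet libraries from C57BL/6 mouse aorta, made with a kit that captures the 3′ end of transcripts. The descending libraries 1 and 2 (aged_aorta_a and aged_aorta_b) came from aged descending aorta and pooled 6 mice each. The arch library (young_arch) came from young aortic arch and pooled 8 mice, and the aged adventitia library gives no mouse number in the labels. For the intimal libraries the adventitia was stripped, the aorta was opened flat and trypsinised, the endothelium was scraped off under actinomycin D, which blocks transcription, and red cells were lysed. The adventitial library carries the same protocol text, and no ages in weeks, sexes or genotypes beyond the strain are given. The arch and the adventitia have 1 library each, so in their contrasts only the 2 descending pools give a spread. The p-values of these contrasts rest mostly on a spread shared across genes, and in macrophages wholly on it. All spread used below is between pools and may be technical. Age and site differ together between arch and descending libraries and cannot be told apart.

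Small leucine-rich proteoglycans are secreted proteins with a curved leucine-rich core, most of which carry glycosaminoglycan chains, and they bind collagen fibrils and control their diameter and spacing. Decorin (Dcn) and biglycan (Bgn) carry chondroitin or dermatan sulfate and also bind growth factors such as TGF-beta. Lumican (Lum), fibromodulin (Fmod) and Prelp belong to the keratan sulfate branch, although Prelp often lacks the chain, and osteoglycin (Ogn) forms a further branch. Matrix Gla protein (Mgp) is a vitamin K-dependent inhibitor of arterial calcification. Sparc and periostin (Postn) are matricellular proteins, which modulate how cells meet the matrix, and fibronectin (Fn1) is the adhesive glycoprotein that integrins hold on to. In the vessel wall, adventitial fibroblasts are known for decorin, and smooth muscle and endothelial cells for Mgp.

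Several of these genes lie side by side. The promoters below are those of Ogn and Prelp, higher in fibroblasts, Bgn, higher in endothelial cells, and Fmod, highest in mesothelial cells. In GENCODE M21 (GRCm38), Dcn (ENSMUSG00000019929, chr10:97479609-97518143, plus strand) is followed after 46985 bases by Lum (ENSMUSG00000036446, chr10:97565128-97572703, plus strand). Prelp (ENSMUSG00000041577, chr1:133910304-133921414, minus strand) and Fmod (ENSMUSG00000041559, chr1:134037254-134048277, plus strand) point away from each other across 115840 bases. Ogn (ENSMUSG00000021390, chr13:49608046-49624501, plus strand) ends a row of relatives that starts with Ecm2, Aspn and Omd. Bgn (ENSMUSG00000031375) lies at chrX:73483602-73495933 on the plus strand, Mgp (ENSMUSG00000030218) at chr6:136872435-136875823 on the minus strand and Sparc (ENSMUSG00000018593) at chr11:55394500-55423183 on the minus strand. Postn (ENSMUSG00000027750) lies at chr3:54361109-54391037 on the plus strand and Fn1 (ENSMUSG00000026193) at chr1:71585520-71653200 on the minus strand. RefSeq promoters (GRCm38.p6) matched 6 of the 10 genes, and the 250 bases before the start are printed 5′ to 3′ on the gene's own strand. Capitals mark matches, on either strand, to the TATA box TATAAA, the GC box GGGCGG or the AP-1 element TGANTCA.
Ogn: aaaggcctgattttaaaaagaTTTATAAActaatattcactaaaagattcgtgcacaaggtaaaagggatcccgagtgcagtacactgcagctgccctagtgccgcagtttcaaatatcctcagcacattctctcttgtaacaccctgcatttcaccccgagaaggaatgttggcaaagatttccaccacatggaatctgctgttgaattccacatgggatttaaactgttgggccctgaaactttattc
Bgn: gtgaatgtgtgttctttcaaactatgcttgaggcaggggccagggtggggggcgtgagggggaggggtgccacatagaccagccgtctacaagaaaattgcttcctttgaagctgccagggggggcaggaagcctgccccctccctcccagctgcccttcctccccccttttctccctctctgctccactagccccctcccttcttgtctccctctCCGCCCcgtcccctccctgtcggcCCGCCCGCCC
Prelp: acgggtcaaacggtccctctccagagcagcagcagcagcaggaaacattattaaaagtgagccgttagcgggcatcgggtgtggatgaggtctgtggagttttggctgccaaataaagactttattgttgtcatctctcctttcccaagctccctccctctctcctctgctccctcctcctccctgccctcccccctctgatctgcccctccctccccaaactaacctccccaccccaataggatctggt
Fmod: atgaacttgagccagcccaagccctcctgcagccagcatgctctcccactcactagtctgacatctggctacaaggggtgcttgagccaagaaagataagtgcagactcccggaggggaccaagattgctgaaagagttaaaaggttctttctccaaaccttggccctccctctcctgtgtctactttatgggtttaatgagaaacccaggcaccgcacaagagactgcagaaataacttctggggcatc
The Ogn window is chr13:49607765-49608014 and holds 2 overlapping TATA box matches, 1 on each strand, from 229 to 222 bases before the start. Among 27025 promoters of the same length, 3504 held a TATA box match. The Bgn window, chrX:73483351-73483600, holds 3 GC box matches, the pair nearest the start overlapping, against 32.9% of promoters with any, and 64.4% of its bases are G or C against a median of 52% over those promoters. No match to the 3 motifs was found in the Prelp window (chr1:133921402-133921651, minus strand) or the Fmod window (chr1:134037004-134037253), and AP-1 element matches stood in 6.87% of promoters. These matches are letters only, and nothing was measured on the promoters here.

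The tables held 2095, 2178, 2187 and 9347 barcodes with 13715023, 13181305, 18624525 and 29370967 UMIs (distinct captured molecules) for descending 1, descending 2, arch and adventitia. After filtering, 1986, 2095, 2122 and 7850 cells remained, with median depths of 2473 to 6951.5 UMIs, and libraries shared between 4 and 31 barcodes. Cells were clustered with the 10 genes left out, and clusters were named from markers that did not include them. UMIs of all 10 endothelial markers were found in endothelial-like cells (1463, 1289, 1246 and 367) of each library. So were UMIs of all 13 fibroblast markers in fibroblast-like cells (333, 645, 435 and 1430). The same held for all 8 macrophage markers in macrophage-like cells (82, 71, 115 and 660). Such counts do not separate the classes, since endothelial cells of each library also held UMIs of all 13 fibroblast markers. The labels were intimal, yet 16.8% to 30.8% of intimal cells were fibroblast-like. Levels are given in CPM, that is, UMIs of a class in a library scaled to the same total. Their exact Poisson 95% intervals cover counting error only, and levels are not compared between genes. The endothelial markers summed to 9474, 9897, 6832 and 5661 CPM in endothelial cells and to 820, 601, 845 and 70.4 in fibroblasts. The fibroblast markers summed to 36010, 36328, 42137 and 37014 CPM in fibroblasts and to 1415, 1725, 2837 and 1120 in endothelial cells.

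Droplets also carry free RNA, so the level in red cells and lymphocytes, which should lack these transcripts, gives the background. Red cells in descending 1 read Dcn at 240.1 CPM (95% interval 172 to 326), Mgp at 720.2, Bgn at 252 and Sparc at 93.7. In arch red cells the same genes read 379, 707, 387 and 455. The 20 lymphoid cells of descending 1 gave a higher Dcn level, 1682 CPM, but 3 of them held 146 of the 153 Dcn UMIs. In the intimal libraries, macrophage levels of no member had an interval above those of all background classes, whereas 6 to 9 members did in fibroblasts.

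Decorin, osteoglycin, Prelp and lumican were higher per UMI in fibroblasts than in endothelial cells in all intimal libraries, while Mgp and biglycan were higher in endothelial cells. The comparison asks which of the 2 main cell classes of the scraped intima carries each matrix gene. Dcn stood at 13005, 12175 and 11158 CPM in fibroblasts of descending 1, descending 2 and arch, and at 699, 856 and 789 in endothelial cells. The fibroblast and endothelial values did not overlap, and edgeR with library as a block gave a log2 difference of 4.12 ± 0.14 (SE, adjusted p = 5.75e-08). Ogn showed the widest gap, with 753, 808 and 697 CPM in fibroblasts against 6.53, 12.2 and 13.3 in endothelial cells (log2 difference 6.33 ± 0.22, adjusted p = 6.15e-08). The endothelial Ogn values in arch lay at the level of arch lymphoid cells, 17.4 CPM. Prelp read 307, 307 and 189 CPM in fibroblasts and 27.9, 27.4 and 59.7 in endothelial cells (log2 difference 3.02 ± 0.33, adjusted p = 6.87e-05). Lum read 199.5, 129.8 and 489.8 in fibroblasts and 40.9, 39.7 and 28.2 in endothelial cells (log2 difference 2.88 ± 0.38, adjusted p = 2.14e-04). For each of these genes every fibroblast library lay above every endothelial one. Endothelial cells were more numerous, and their shares include free RNA. They held 52.7%, 45.3% and 19.99% of the Lum UMIs of descending 1, descending 2 and arch, and 29.3%, 19.2% and 51.8% of the Prelp UMIs. Their share was 16.2% to 22.9% for Dcn and 4.02% to 7.24% for Ogn. In the descending libraries no endothelial interval of these genes lay above all background classes. In the arch those of Dcn, Lum and Prelp did. The descending background rests on few cells, so it does not show that these endothelial levels are free RNA. In descending 1 its highest Dcn level, 1682 CPM in lymphoid cells, became 116 without the 3 cells named above. In descending 2 it read Lum at 0 CPM, but in only 20 B and 22 lymphoid cells.

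Matrix Gla protein ran the other way. Its endothelial levels were 6983, 7174 and 5583 CPM against 1069, 876 and 1147 in fibroblasts, a log2 difference of -2.51 ± 0.15 (adjusted p = 1.28e-06). Fibroblast Mgp lay above the background classes of its own library in descending 1 (720.2 to 737) and arch (707 to 999.8), but not in descending 2 (924 to 1427). Endothelial cells held 96.1%, 94.4% and 91.0% of all Mgp UMIs of the 3 intimal libraries. Biglycan read 2496, 2665 and 3190 CPM in endothelial cells and 1112, 890.2 and 1282 in fibroblasts (log2 difference -1.19 ± 0.12, adjusted p = 3.03e-05), again without overlap. Decorin, its close relative, was higher in the other class.

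Sparc, Fn1 and Postn were higher in fibroblasts than in endothelial cells. Endothelial intervals lay above all background classes of the library for Sparc in the arch and for Fn1 in descending 2 and the arch. For Postn they did so in no intimal library. Fibroblast Sparc lay above them in every intimal library, fibroblast Fn1 in descending 2 and the arch, and fibroblast Postn in the arch alone. The descending 1 background includes the lymphoid cells with most Dcn UMIs. Fn1 read 1581, 1609 and 1338 CPM in fibroblasts against 445, 391 and 557 (log2 difference 1.88 ± 0.16, adjusted p = 1.43e-05). Sparc read 2776, 2523 and 5522 against 757, 831 and 2689.6, and the arch endothelial value came close to the descending fibroblast ones. Within a library Sparc was always higher in fibroblasts (log2 difference 1.67 ± 0.17, adjusted p = 3.37e-05; adjusted p = 0.0512 without the library block). Postn was low, at 17.8, 14.2 and 78.3 CPM against 0.480, 0.452 and 2.81 (log2 difference 5.02 ± 0.20, adjusted p = 1.25e-07). Fmod also passed (log2 difference 2.45 ± 0.63, adjusted p = 0.0103, and 0.129 without the library block) but had under 8 CPM in either class. Of the 10 genes 8 were called higher and 2 lower in fibroblasts. Of all 12235 tested genes 52% were called, 26.3% higher and 25.7% lower. The median log2 difference was 2.66 over the 10 genes and -0.02 over all tested genes. The plot of levels shows every class and library.

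**Figure D1:**
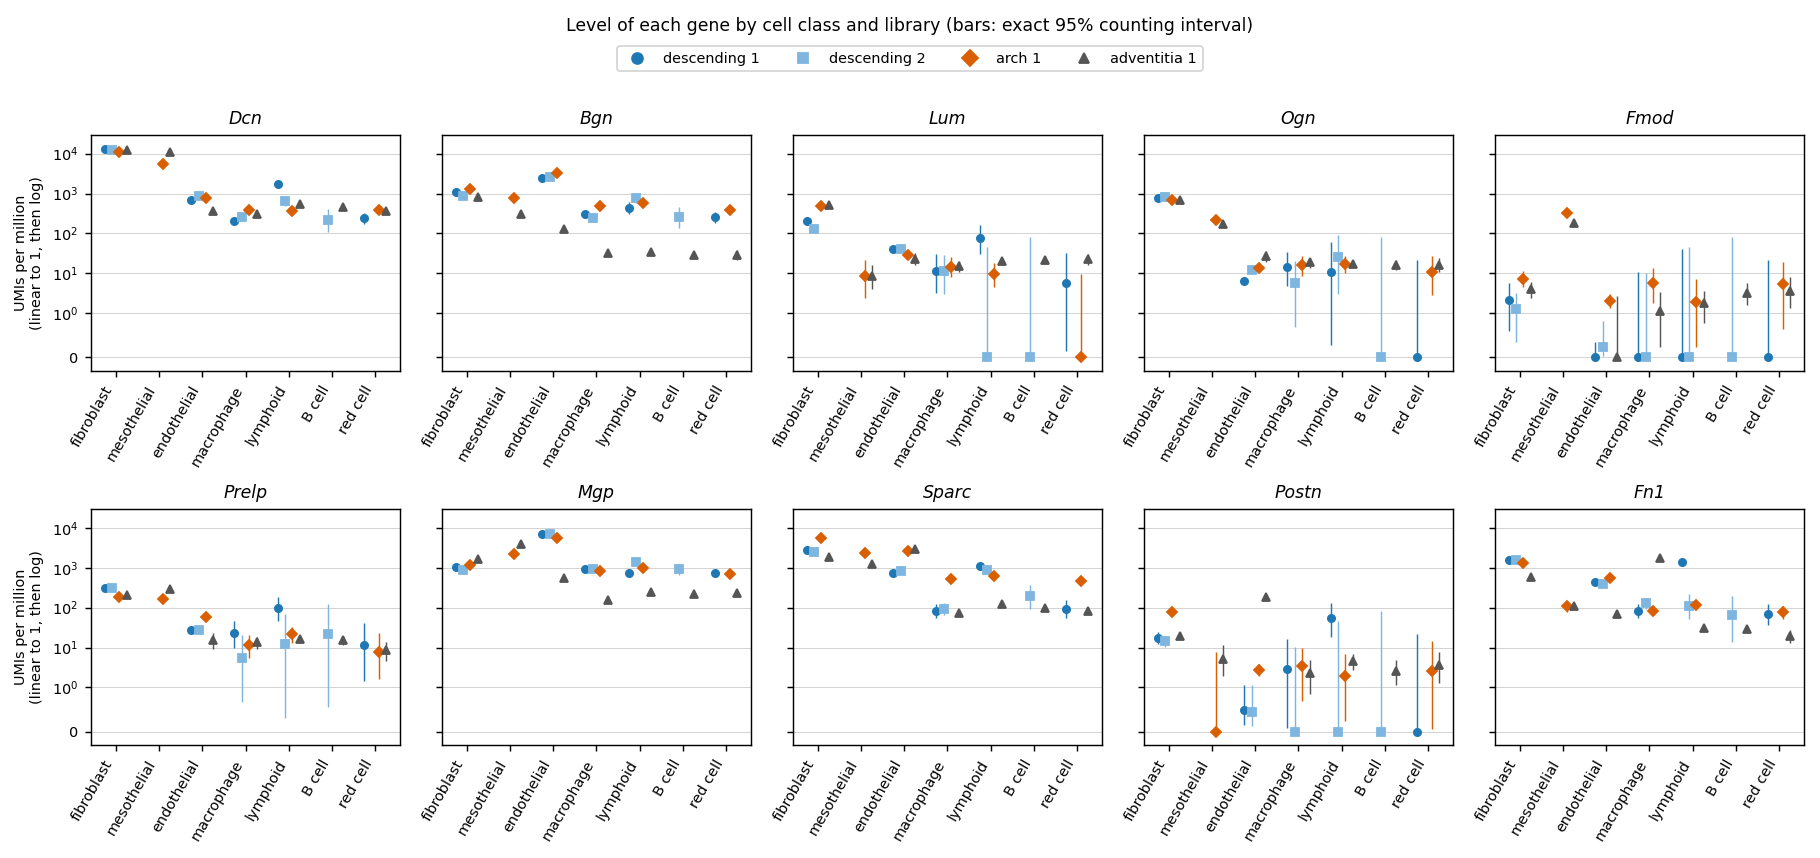
Each panel shows 1 gene, with cell classes on the horizontal axis and UMIs CPM on the vertical axis (linear up to 1, then logarithmic), 1 symbol per library and bars for the exact 95% counting interval. Dcn and Ogn are highest in fibroblasts, intimal Mgp and Bgn in endothelial cells, Fmod in mesothelial cells and adventitial Fn1 in macrophages.

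Fibromodulin was highest in mesothelial cells. Mesothelial-like cells, the flat lining cells of body cavities, numbered 44 in the arch and 168 in the adventitia and read Fmod at 332 (281 to 388) and 187 (163 to 213) CPM. Fibroblasts read it at 2.16, 1.27, 7.35 and 4.01 CPM in the order descending 1, descending 2, arch, adventitia, close to the 1.79 to 5.30 of lymphoid and red cells in the arch and adventitia. Mesothelial cells made up 2.07% and 2.14% of the cells and held 74.2% and 78.0% of the Fmod UMIs of the arch and the adventitia. They also carried Dcn at 5529.9 and 11019 CPM and Mgp at 2191 and 3858, whereas Lum stood at 8.56 and 8.65, below the fibroblast levels of those libraries. With 1 arch and 1 adventitial library these values have no test. Its neighbour Prelp was not restricted in this way, at 169 and 294 CPM in mesothelial cells and 189 and 211 in fibroblasts of the same libraries.

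**Figure D2:**
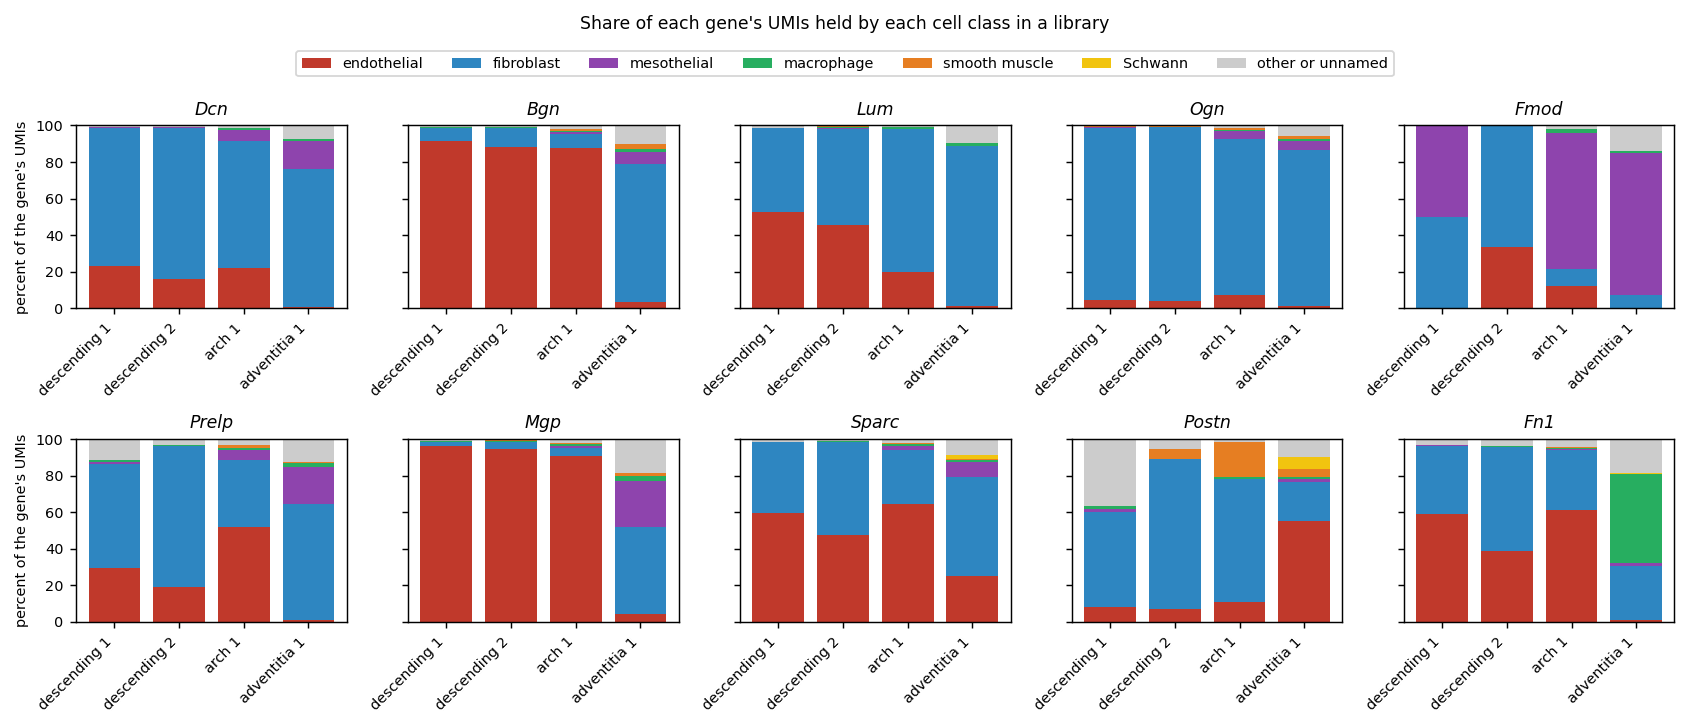
Stacked bars give, for each gene and library, the percentage of that gene's UMIs held by each cell class, and each bar adds up to 100%. Mgp and Bgn bars are mostly endothelial in the 3 intimal libraries, Fmod bars mostly mesothelial in the arch and the adventitia, and the adventitial Fn1 bar is 49.1% macrophage.

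The arch differed from the descending aorta most plainly in Sparc, whose protein binds collagen and tunes its assembly. In endothelial cells Sparc read 757 and 831 CPM in the descending libraries and 2689.6 in the arch. The arch value was 3.55 (3.47 to 3.64) and 3.24 (3.15 to 3.32) times the descending ones, and edgeR gave a log2 fold change of 1.84 ± 0.16 (adjusted p = 3.69e-10). In fibroblasts Sparc rose from 2776 and 2523 to 5522 (log2 fold change 1.08 ± 0.14, adjusted p = 4.68e-05). Arch cells were above both descending libraries in either class. Macrophages read 84.0, 92.3 and 516, also a call (log2 fold change 2.64 ± 0.27, adjusted p = 8.33e-20), but arch red cells, at 455, and arch lymphoid cells, at 634, read about as much. Sparc in red cells was likewise 4.86 times (2.91 to 8.70) as high in the arch as in descending 1. Lymphoid cells read 1077, 901 and 634 in descending 1, descending 2 and arch, and the descending 1 value became 183 without the 3 cells that held most of its Dcn UMIs. The part of free RNA in the endothelial and fibroblast differences was not tested.

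Several marker lists moved with the arch library. The 7 smooth muscle markers, all detected, summed to 136 and 116 CPM in descending and 566 in arch endothelial cells, and to 99.5, 59.5 and 336 in fibroblasts, where 6, 6 and 7 of them were detected. The 13 fibroblast markers summed to 1415, 1725 and 2837 in endothelial cells. When endothelial cells with a UMI of Pdgfra, Dpt, Clec3b or Serpinf1 were left out, endothelial Sparc was still called (log2 fold change 1.69). That set kept 673 of 1463 and 582 of 1289 endothelial cells in the descending libraries, but 244 of 1246 in the arch. Cells without these UMIs can still hold free RNA, so the part of fibroblast RNA in endothelial Sparc was not tested.

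Lumican and Prelp moved differently in the 2 classes. Lum in fibroblasts read 199.5 and 129.8 CPM in the descending libraries and 489.8 in the arch, a rise of 1.61 ± 0.21 on the log2 scale (adjusted p = 5.54e-05). In endothelial cells it read 40.9, 39.7 and 28.2, with a log2 fold change of -0.44 ± 0.16 that was not called (adjusted p = 0.0760). A test of the difference between the classes, added after the values were seen, gave 2.08 ± 0.21 (adjusted p = 8.17e-10). Prelp did the reverse. It rose in endothelial cells from 27.9 and 27.4 to 59.7 CPM (log2 fold change 1.19 ± 0.15, adjusted p = 5.75e-07), against 7.94 and 21.3 in arch red and lymphoid cells, although DESeq2 did not call it (adjusted p = 0.167). Fibroblast Prelp read 307, 307 and 189, with a log2 fold change of -0.68 ± 0.20 that missed the threshold (adjusted p = 0.0690). The difference between the classes was -1.85 ± 0.20 (adjusted p = 3.75e-09). These 2 members, 1 higher and 1 lower, were the ones called in that test, where 2.74% of 12706 genes were called, 1.13% higher and 1.61% lower.

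Periostin, which is known from developing and injured connective tissue, was higher in the arch but scarce. Fibroblasts read it at 17.8 and 14.2 CPM in the descending libraries and 78.3 in the arch (log2 fold change 2.33 ± 0.23, adjusted p = 2.83e-06), with no overlap. Endothelial cells held 9 Postn UMIs in both descending libraries together and 34 in the arch, a ratio of 6.01 (2.82 to 14.3), and the arch level of 2.81 CPM lay within the counting interval of its lymphoid cells (1.94). The endothelial call (log2 fold change 2.63 ± 0.44, adjusted p = 5.38e-05) was lost without endothelial cells that held a UMI of those 4 fibroblast markers (adjusted p = 0.540). Only 1385366 of the 12100663 arch endothelial UMIs were left in that set. The lost call therefore cannot be told apart from the loss of counts. Fmod in endothelial cells rested on 2 descending and 25 arch UMIs, a ratio of 19.9 (4.96 to 173), and its 2.07 CPM also lay at the arch background of 1.94 to 5.30. Fn1 in endothelial cells read 445, 391 and 557 CPM (log2 fold change 0.49 ± 0.16, adjusted p = 0.0378), a call that DESeq2 (adjusted p = 0.795) and keeping doublets (adjusted p = 0.0745) did not make. Dcn, Mgp, Bgn and Ogn were not called in either class between arch and descending aorta, and endothelial Mgp, at 6983, 7174 and 5583, had a log2 fold change of -0.26 ± 0.17 (adjusted p = 0.384).

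Of the 10 genes, edgeR called 5 higher and 0 lower in arch endothelial cells, where 11.3% of 12974 tested genes were called, 6.43% higher and 4.91% lower. At an unadjusted p under 0.05, 7 would be higher and 1 lower, and DESeq2 called 2 higher and 0 lower. In fibroblasts edgeR and DESeq2 called the same 3 higher and 0 lower, and 1 would be lower at an unadjusted p under 0.05. Of 11515 genes tested there 3.33% were called, 2.09% higher and 1.23% lower. In macrophages 3 of the 7 tested (Sparc, Bgn and Dcn) were called higher, against 5.46% of 7325 genes, 2.63% higher and 2.83% lower. The intervals of these 3 in arch macrophages did not lie above those of arch red and lymphoid cells. The median log2 fold change over the 10 genes was 0.55 in endothelial cells and 0.32 in fibroblasts, and over all tested genes it was -0.00095 and -0.01.

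**Figure D3:**
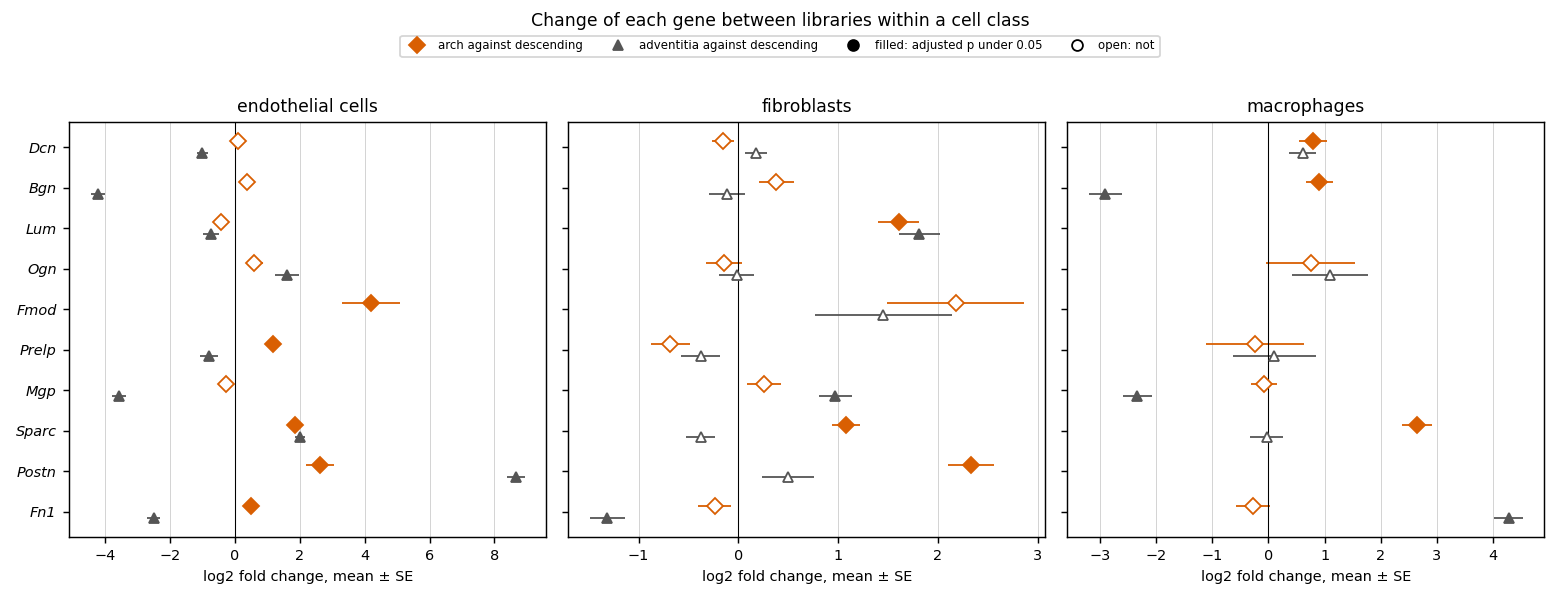
Points give the log2 fold change of each gene against the descending libraries and bars its standard error, for arch (diamonds) and adventitia (triangles) in 3 cell classes, with filled points for an adjusted p under 0.05. Sparc is filled and to the right in arch cells of all 3 classes, and adventitial Mgp and Bgn lie far to the left in endothelial cells and macrophages. Macrophage levels of Sparc, Mgp and Bgn did not lie above the background classes. Fmod in adventitial endothelium, with 0 UMIs, is left out.

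The adventitial library was set against the same 2 descending libraries, so both contrasts share their reference. Endothelial cells of the adventitia, which read the capillary receptor gene Kdr at 1026 CPM against 7.39 and 9.39 in the descending libraries, had little of the intimal Mgp and Bgn. Mgp read 6983 and 7174 in the descending libraries and 562 in the adventitia (log2 fold change -3.58 ± 0.21, adjusted p = 1.17e-15), and Bgn read 2496, 2665 and 131 (-4.22 ± 0.22, adjusted p = 4.79e-17). Fn1 fell from 445 and 391 to 69.7 CPM (-2.51 ± 0.20, adjusted p = 5.54e-12), and Dcn from 699 and 856 to 367 (adjusted p = 2.94e-05), within the 361 to 555 of adventitial red, B and lymphoid cells. The Dcn call was lost with doublets kept (-0.35, adjusted p = 0.145). Sparc rose to 3024 CPM (log2 fold change 2.01 ± 0.16, adjusted p = 3.05e-12) over a background of 83.7 to 121. For Mgp, Bgn, Fn1 and Sparc the adventitial value lay outside both descending ones. In all, 3 members were called higher and 6 lower, where 37.9% of genes were called, 19.4% higher and 18.5% lower. The median log2 fold change was -0.90 over the members and -0.10 over all genes. Ogn was called higher at 26.6 CPM (adjusted p = 6.06e-04, and 0.0636 by DESeq2), with an interval that overlapped those of adventitial background classes, and the lower calls of Lum and Prelp were lost under DESeq2 (adjusted p = 0.418 and 0.406).

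Adventitial Postn depended on which cells were called endothelial. It read 185 CPM in the 367 endothelial-like cells against 0.480 and 0.452 in the descending ones, with a log2 fold change of 8.66 ± 0.27 (adjusted p = 7.94e-23). The 6 pericyte markers, which label the mural cells of small vessels, summed to 1243 CPM in this class and to 1.15 and 1.02 in the descending libraries. When the 10 genes entered the clustering, 68 of these cells formed a pericyte-like cluster with Rgs5 at 2309.6 CPM. The 10 genes could help to form this split, so their differences between its groups are partly built in. Postn read 706 (620 to 801) CPM in those 68 cells and 15.2 (8.70 to 24.7) in the remaining 299, and the log2 fold change became 5.09. Mgp in the same groups read 1665 and 205 CPM, and Bgn 322 and 68.5, so Mgp in the 299 cells was no higher than the 225 to 251 of adventitial B, lymphoid and red cells. Sparc was 3705 and 2804. The 68 cells also read the endothelial gene Pecam1 at 454 CPM, against 652 in the others.

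Adventitial fibroblasts kept Dcn, Ogn and Bgn near the descending levels but differed in Lum, Mgp and Fn1. Dcn read 13005, 12175 and 12662 CPM in descending 1, descending 2 and adventitia, so the adventitial value fell between the others (log2 fold change 0.17 ± 0.11, adjusted p = 0.306). Lum rose from 199.5 and 129.8 to 512 (1.82 ± 0.21, adjusted p = 1.18e-06) and Mgp from 1069 and 876 to 1699 (0.97 ± 0.17, adjusted p = 1.44e-04). The adventitial background of Mgp, 225 to 251, was below that of the intimal libraries. Fn1 fell from 1581 and 1609 to 573 (-1.31 ± 0.17, adjusted p = 8.44e-06). Each of these adventitial values lay outside the descending pair. The 2 higher and 1 lower calls stand beside 23.3% of all genes called, 13.6% higher and 9.67% lower. The median was 0.08 over the members and -0.01 over all genes.

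In the adventitia, macrophages held 49.1% of the fibronectin UMIs and fibroblasts 29.7%. Adventitial macrophages read Fn1 at 1803 (1752 to 1856) CPM against 84.0 and 129 in the descending libraries and 82.6 in the arch. The last 3 values lay near the 66.0 to 118 of intimal background cells other than the lymphoid cells of descending 1, which read 1374, or 49.8 without those 3 cells, and the adventitial one was 59.4 times the highest background there. The contrast with the descending libraries gave a log2 fold change of 4.28 ± 0.25 (adjusted p = 2.76e-60), with Bgn and Mgp lower. That made 1 member higher and 2 lower, where 12.8% of genes were called, 7.24% higher and 5.54% lower. Macrophage intervals of Bgn and Mgp did not lie above the background classes in these libraries. In descending 1, descending 2 and adventitia Bgn read 304, 243 and 31.8 CPM against highest backgrounds of 440, 751 and 34.8. Mgp read 915, 915 and 158 against 737, 1427 and 251. The part of free RNA in these 2 lower calls was not tested. With doublets kept, edgeR called 0 genes in either macrophage contrast, with 1228 (adventitia) and 751 (arch) at an unadjusted p under 0.05, and DESeq2 called 181 and 74 genes without them. The Fn1 difference was then 4.20 with an adjusted p of 0.295.

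Within adventitial macrophages Fn1 differed between clusters. The 117 cells of cluster 22, led by Saa3, Slpi, Serpinb2, Alox15 and Prg4, read it at 5834 CPM, and the 542 cells of cluster 10, led by Ccl12, Ccl8 and Cd163, at 78.4. Fn1 also stood at 381 CPM in 182 monocyte-like cells and at 1049.7 in 185 cells of cluster 15, which stayed unnamed and was led by Lyz1, Ear2 and Retnla. In the arch, 22 cells of that cluster read 1425. The intimal macrophage clusters 19, led by Cd209f, F13a1 and Lyve1, and 23, led by Mmp12 and Rgs1, read Fn1 at 79.3 to 87.3 CPM. That range covers libraries with at least 20 cells of the cluster. It leaves out the 17 cells of cluster 23 in descending 2, where all macrophages together read 129. These cluster values come from single libraries and describe them.

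Intimal endothelial cells fell into groups that differed in Mgp, Dcn, Lum and Prelp. In the descending libraries, 1009 and 791 cells formed cluster 0, led by Adra2a, Sema3g and Klk10, and 362 and 388 cells formed cluster 6, led by Frzb, Coch and Adh1. Mgp read 8348 and 8841 CPM in cluster 0 and 4436 and 4900 in cluster 6, a ratio of 1.88 and 1.80. Dcn read 314 and 304 in cluster 0 and 1589 and 1829 in cluster 6. Lum read 13.7 and 14.3 against 106 and 85.5, and Prelp 16.4 and 11.4 against 53.1 and 54.9. Both libraries showed the same order for these 4 genes, with intervals that did not overlap, while Bgn in cluster 0 was 0.93 and 0.96 times its cluster 6 level. Fn1 was higher in cluster 0, by 1.41 (1.32 to 1.51) and 1.28 (1.19 to 1.37) times.

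The fibroblast markers summed to 1441 and 1615 CPM in cluster 6 and 1356 and 1735 in cluster 0. The smooth muscle markers summed to 259 and 171 in cluster 6 and 87.5 and 63.3 in cluster 0. The part of RNA from other cells in the cluster differences was not tested. Clustering the endothelial cells alone separated 102 and 179 descending cells led by Serpina3g, Aqp1, Cd74 and Dcn itself, which had not entered the clustering. They read Dcn at 1924 and 2060.0, Lum at 89.1 and 92.3 and Mgp at 3527 and 4199.5 CPM. At the other end, a group of 537 and 316 cells led by Adra2a, Col8a1 and Stmn2 read Mgp at 10005 and 10459 and Dcn at 289 and 263.

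The arch endothelium split along similar lines in Dcn, Lum, Prelp and Mgp. Fn1 went the other way: it was higher in the cluster with more Dcn here, and in the one with less Dcn in the descending libraries. Cluster 9 (586 cells, led by Ahsg, Edn1 and Emcn) read Dcn at 1129 and cluster 7 (588 cells, led by Serpina1b and Serpina1d) at 362 CPM, a ratio of 3.12 (2.96 to 3.28). Lum was 2.53 (1.96 to 3.31), Prelp 1.98 (1.68 to 2.34) and Fn1 1.54 (1.46 to 1.62) times higher in cluster 9, and Mgp was 0.83 times the cluster 7 level. Sparc read 2982 and 2324, both above the 722 to 852 of the descending clusters. The 83 and 102 descending cells that joined cluster 7 read Sparc at 743 and 892, so cells of 1 cluster differed by library. Cluster 9 was deeper (median 10210 UMIs against 7622) and its smooth muscle markers summed to 810.7 against 259.6 CPM.

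**Figure D4:**
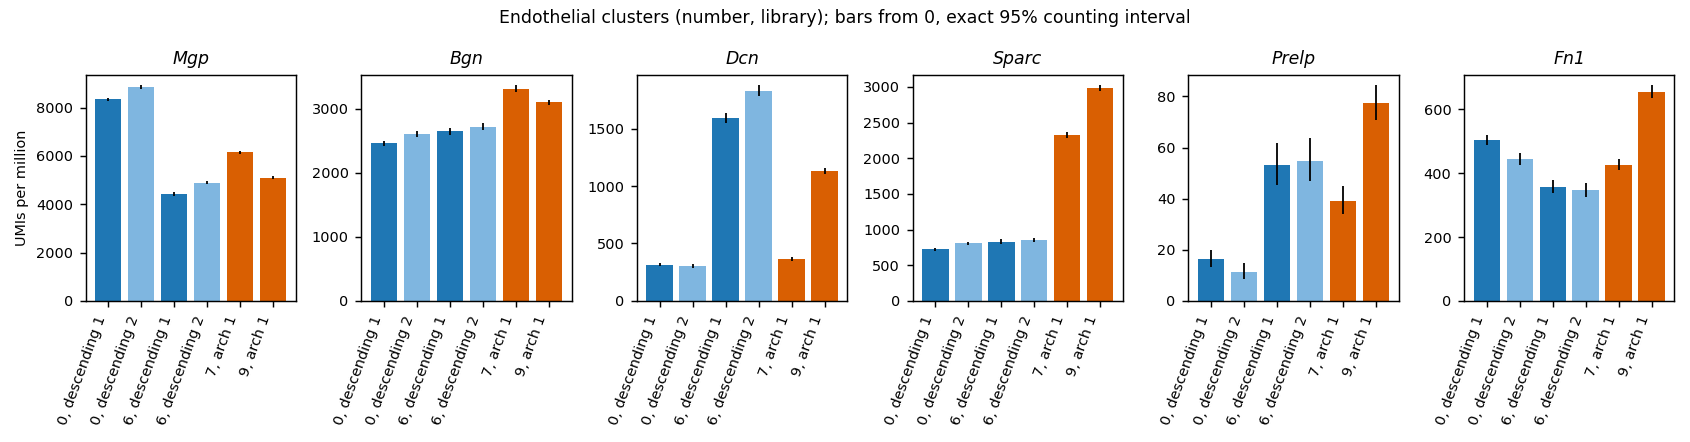
Bars start at 0 and give UMIs CPM of 6 genes in endothelial clusters 0 and 6 of both descending libraries and clusters 7 and 9 of the arch, with the exact 95% counting interval. Mgp is higher in cluster 0 than in cluster 6, Dcn and Prelp the reverse, and Sparc is high in both arch clusters.

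Fibroblasts were not uniform in these genes. In the descending libraries, 273 and 579 cells of sub-cluster 0, led by Bmp3, Smpd3 and Adamts5, read Dcn at 15065 and 12785 and Ogn at 895 and 881 CPM. Another 32 and 36 cells, sub-cluster 5, led by Anxa8, Evpl, Cd55 and Prg4, read Dcn at 6037 and 5995 and Ogn at only 104 and 115. The same cells read Prelp at 513 and 723 against 259.6 and 260.9, and Sparc at 5675 and 4585 against 2011 and 2318. Fn1 read 2886 and 2040 against 1261 and 1598. Postn read 61.7 and 93.1 against 5.13 and 6.91, but from 22 UMIs in 5 cells and 26 UMIs in 4 cells. Both libraries gave the same order for all 6 genes. Sub-cluster 5 was also deeper, with medians of 9404.5 and 7760.5 UMIs against 4854 and 4597.

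Adventitial fibroblasts held 3 larger sub-clusters. Sub-cluster 4 (167 cells, led by Thbs4 and Cilp) read Mgp at 3863, Bgn at 1963 and Postn at 53.3 CPM. Sub-cluster 1 (679 cells, led by Cxcl14 and Sparcl1) read Mgp at 2276 and Lum at 744. Sub-cluster 2 (574 cells, led by Cxcl13, with Ptx3 and Il6 and also haemoglobin genes among its leaders) read Mgp at 508 and Lum at 241, while its Fn1 of 996 CPM exceeded the 228 and 291 of sub-clusters 1 and 4. Mgp lay above both descending class levels in sub-clusters 1 and 4 and below them in sub-cluster 2. The 397 arch cells of sub-cluster 3 read Sparc at 5574 and Lum at 502.

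**Figure D5:**
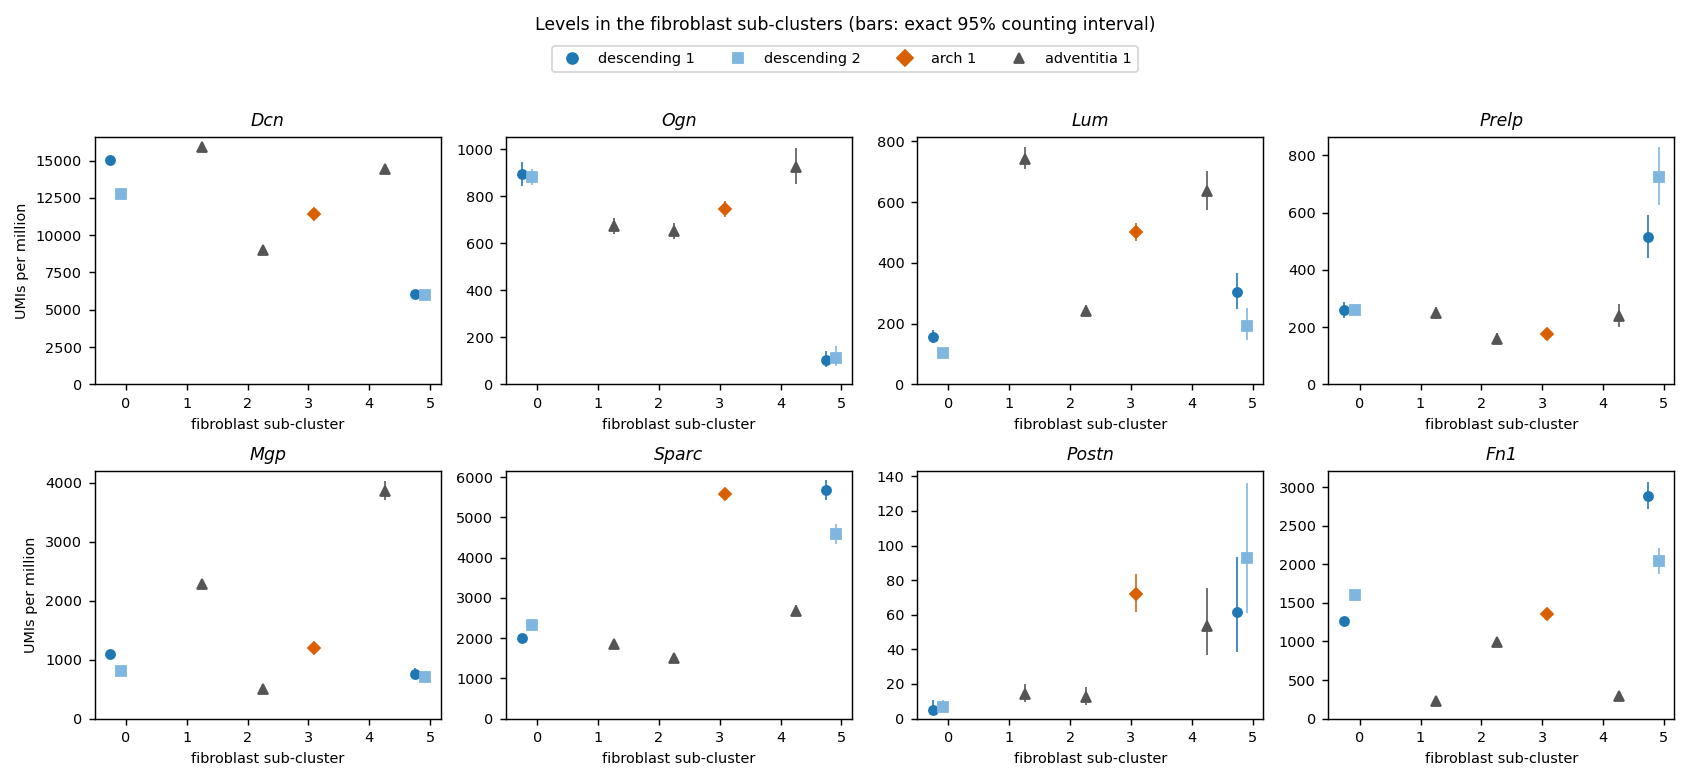
Each panel shows 1 gene in the fibroblast sub-clusters with at least 20 cells in a library, as UMIs CPM from 0, with 1 symbol per library and exact 95% counting intervals. Sub-cluster 5 of the descending libraries is low in Ogn and Dcn and high in Prelp, Sparc and Fn1, and adventitial sub-clusters 1 and 4 are high in Mgp and Lum.

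Single cells carried several of the genes at once. With each cell thinned to 2000 UMIs and shallower cells left out, fibroblasts had UMIs of a median of 6 of the 10 genes in the 3 intimal libraries and 5 in the adventitia. Endothelial cells had a median of 4 in the intima and 2 in the adventitia, against 2 to 3 in intimal and 1 in adventitial red cells. In the arch 94.3% and in descending 1 and 2 87.5% and 85.7% of fibroblasts had 5 or more, against 41.3%, 21.7% and 23.3% of endothelial cells. After thinning, Mgp was found in 99.7% to 99.9% of intimal endothelial cells and in 37.8% of adventitial ones, where 31.7% of red cells also had a UMI. Fibroblasts with Dcn made up 99.7% to 100% of the class in all 4 libraries.

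Related genes were counted from lists. Of the 12 other small leucine-rich proteoglycans, 8 were tested between fibroblasts and endothelial cells, 6 were higher in fibroblasts and 1, Chad, in endothelial cells (26.3% and 25.7% of all genes). Asporin (Aspn), a close relative of decorin, led them with a log2 difference of 6.43 ± 0.17, and the list's median was 2.64 against -0.02 over all genes. In arch endothelial cells, where 6.43% of all genes were called higher and 4.91% lower, 3 of 8 were called higher, among them Ecm2 (67.1 and 80.2 to 99.9 CPM), and in arch fibroblasts 1 of 7, Epyc, from 2.70 and 2.85 to 15.8 (2.09% of all genes called higher). Of the 25 matricellular genes and Sparc relatives, 7 were higher and 3 lower of 18 tested in arch endothelium, with Smoc2 the highest (log2 fold change 1.85), Spock2 at -1.48 and a list median of 0.58. In adventitial fibroblasts 10 were higher and 4 lower of 21, where 13.6% of all genes were higher and 9.67% lower. Sparcl1, the closest relative of Sparc, read 7.03, 6.65 and 333 CPM there and 2.40, 1.47 and 755 in endothelial cells of descending 1, descending 2 and adventitia. Thbs1 read 21.1, 19.0 and 259.8 in fibroblasts and 17.4, 16.8 and 365 in macrophages of the same libraries, and both differences were called.

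The lists also held the enzymes and receptors these proteins depend on. Of 18 tested enzymes of glycosaminoglycan synthesis, 1 was higher and 1 lower in arch endothelium (median log2 fold change -0.11), a share near the 11.3% of all genes called there. Between fibroblasts and endothelial cells 8 were higher and 5 lower, beside 26.3% and 25.7% of all genes. Ust (5.47) and Dse, which makes dermatan sulfate (3.50), were among the higher and Chst11 (-2.42) among the lower. Of the 4 genes of gamma-carboxylation, which activates Mgp, 3 were lower in adventitial endothelium, where 18.5% of all genes were called lower, with Vkorc1 at 154, 163 and 48.9 CPM in descending 1, descending 2 and adventitia. Among 8 tested receptors of fibronectin and periostin, Itgb3 was lower in arch endothelium (23.2 and 14.7 to 3.39 CPM), where 4.91% of all genes were called lower. Of 15 TGF-beta and BMP genes, 5 were higher in arch endothelium (6.43% of all genes), including Bmp4 (705 and 638 to 1099.9 CPM), Tgfb2 and Ltbp1. Of 7 receptors for decorin, biglycan and lumican, 2 were higher and 3 lower in adventitial endothelium (19.4% and 18.5% of all genes), the higher ones being Kdr and Cd14 and the lower ones Met, Tlr2 and Tlr4.

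The chromosomal neighbours of the same protein family are given by their own levels. Kera, next to Lum, had 0 UMIs in fibroblasts of all 4 libraries, which by the limit of 3 counts allows up to 1.62 CPM in descending 1, and Epyc beyond it was below 16 CPM in fibroblasts. Omd, next to Ogn, read 49.7, 55.1, 44.1 and 14.8 in fibroblasts, and Ecm2, at the far end of that row, 70.8 to 85.3 in fibroblasts and 67.1 to 99.9 in intimal endothelial cells. Optc, 2305 bases from Prelp, stayed at or under 1.10 CPM in fibroblasts. Over 22 class-by-library sums, which share libraries and free RNA, Dcn was most like Serping1 (Pearson r = 0.99), Nbl1 and Sox9, Bgn most like the elastin gene Eln (0.97), Mgp most like Slco2a1 (0.96) and Bmp4 (0.95), and Ogn most like Cadm3 (0.96). Fmod was most like the mesothelial markers Msln (0.85) and Krt8 (0.83), Postn most like Meox2 (0.91) and the pericyte marker Abcc9 (0.90), and Fn1 most like Fam20c (0.90). Among the members, Dcn followed Prelp (0.94) and Ogn (0.92), and Bgn followed Mgp (0.92).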

How the data were processed

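Single-cell libraries were counted by the authors with Cell Ranger 2.1.2 against mm10, per the submitters' processing notes, and the deposited tables hold UMI counts per gene and barcode. From these counts, barcodes were dropped where fewer than 200 genes were detected or mitochondrial transcripts exceeded 10%. The automatic doublet call marked 6, 24, 24 and 2 barcodes, too few for the loading, so the highest doublet scores were removed at 0.8% per 1000 barcodes (44, 37, 50 and 647). Cells of all libraries were clustered together (scanpy 1.11.5, 2000 variable genes, 30 components, 15 neighbours, Leiden resolution 1.0, 0.5 within a class) without the 10 genes. A cluster was named from at least 3 detected markers, and classes under 20 cells in a library were not used.

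Counts were summed per library and class and tested with edgeR 4.0.16 (quasi-likelihood, TMM scaling, filterByExpr, Benjamini-Hochberg adjustment over all genes tested, threshold 0.05), with DESeq2 1.42.0 as an alternative. The arch and adventitia contrasts used all 4 libraries, and only the 2 descending libraries give a spread, with 1 residual degree of freedom. edgeR moderates this spread towards a value shared across genes. The prior degrees of freedom were 30.3 in endothelial cells, 19.0 in fibroblasts and infinite in macrophages. The p-values therefore rest mostly on the shared spread, and in macrophages wholly on it. Fibroblasts were set against endothelial cells in the 3 intimal libraries with library as a block, since both classes come from the same droplets. The test of the difference between classes was added after the values were seen. The members and the gene lists were chosen with earlier results of these data known. From the lists, up to 3 called genes with the largest change in each direction were named. Shares of cells were taken after thinning to 2000 UMIs. Coordinates come from GENCODE M21 and promoter sequences from RefSeq. The tests were tried on simulated counts.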

Additional observations from a re-analysis of the deposited data

Results flagged for a closer look

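The arch difference of Lum and Prelp was not alike in the 2 main cell classes, by a test of the difference itself. For Lum the log2 fold change of arch against descending was 2.08 higher in fibroblasts (1.61) than in endothelial cells (-0.44), and for Prelp the difference was -1.85, with -0.68 in fibroblasts and 1.19 in endothelial cells. Both were called by edgeR (adjusted p = 8.17e-10 and 3.75e-09) and DESeq2 (adjusted p = 8.77e-06 and 2.74e-05). The contrast has 1 arch library, and the 13 fibroblast markers summed to 2837 CPM in arch endothelial cells against 1415 and 1725 in the descending ones. Their part in these differences was not tested.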

How the results depend on the processing

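Among the alternatives tried on the single genes, 471 values counted as unchanged, 28 lost the call and 7 gained it. Another 22 moved by more than the spread of the descending pair and 11 changed sign. For tested values, unchanged means the same direction and side of the threshold. Arch and adventitia values with a descending library left out have no test. They counted as unchanged when they moved by less than the spread of the descending pair. That spread comes from the same pair, so this label does not show that those values are stable. With DESeq2 the numbers of genes called were 200 (endothelial arch, 1471 with edgeR), 2309 (endothelial adventitia, 4919), 57 (fibroblast arch, 383), 630 (fibroblast adventitia, 2684), 74 (macrophage arch, 400, with 22 higher and 52 lower against 193 and 207), 181 (macrophage adventitia, 936) and 53 (difference between classes, 348). Leaving out endothelial cells with a UMI of Pdgfra, Dpt, Clec3b or Serpinf1 gave 387 calls for endothelial arch and 202 for the difference between classes, where Postn turned to 0.25. Without a filter on low counts the macrophage calls were 106 (arch) and 622 (adventitia). With doublets kept, 618 genes were called for fibroblast arch and 0 in both macrophage contrasts (751 and 1228 at an unadjusted p under 0.05). The cause was not tested.

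Sparc in adventitial macrophages, -0.03 at first, became 0.012 with DESeq2, 0.064 without the filter and 0.47 with doublets kept. Leaving out 1 descending library at a time, log2 fold changes ranged from -0.082 to 0.046 for that gene, from -0.042 to 0.26 for Dcn in arch endothelium, from -0.25 to 0.021 for Bgn and from -0.097 to 0.050 for Ogn in adventitial fibroblasts. The ranges were -0.94 to 1.09 for Prelp and -0.55 to 0.062 for Fn1 in arch macrophages, and -0.59 to 1.45 for Prelp in adventitial ones. None of these genes was called in that contrast. Without 1 descending library no residual spread was left in the arch and adventitia contrasts, so these are values with no test.

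Fibroblasts against endothelial cells gave 6360 calls, 4698 to 6543 without 1 library and 5278 without the replicate block of library, where Sparc (1.49, adjusted p = 0.0512) and Fmod (2.28, adjusted p = 0.129) lost their calls. No paired analysis was possible for arch or adventitia against descending because those groups share only 1 replicate number. Low counts limit Fmod (2 descending and 25 arch UMIs) and Postn (9 and 34) in intimal endothelial cells.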
